A study of Mus musculus with 5 samples.

Results

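Secreted Wnt inhibitors and R-spondins were described in bulk RNA sequencing of whole embryonic mouse kidneys (embryonic day 15.5). The set is a list of gene names, drawn up with earlier results of these data known. It holds the Dickkopf genes Dkk1, Dkk2 and Dkk3, the Frizzled-related genes Sfrp1, Sfrp2 and Frzb, the inhibitors Wif1 and Sostdc1, and the R-spondins Rspo1 and Rspo3. All 10 were among the 32793 genes measured. NICD_mut kidneys (2 libraries) had the genotype Six2TGC/+, RosaN1ICD∆PEST. In these mice a Six2-driven transgene makes Cre in nephron progenitors, and Cre switches on an activated Notch1 that lacks its PEST domain, a degradation signal. NICD_wt kidneys (3 libraries) were from littermates with RosaN1ICD∆PEST and no Cre, so all 5 libraries shared the Rosa allele and the NICD_mut libraries alone had the driver. The driver and the activated Notch1 cannot be told apart in any comparison. The labels do not say how many animals went into a library, so each p-value speaks only of the spread among these libraries, part of which may be technical.

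Wnt proteins signal by joining a Frizzled receptor to the co-receptor Lrp5 or Lrp6, which keeps beta-catenin from being degraded. Secreted inhibitors act at separate steps: DKK1, DKK2 and SOSTDC1 bind the Lrp co-receptors, while the Frizzled-related proteins and WIF1 bind the Wnt ligands. R-spondins raise the response, since with Lgr receptors they remove the ubiquitin ligases Znrf3 and Rnf43, which clear Frizzled from the cell surface. In the developing kidney, Wnt9b from the ureteric bud and Wnt4 from the nascent nephron drive progenitors to form epithelium.

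Libraries held 17361823 to 21356447 counts, which limits the precision of low genes such as Wif1. Levels are given as CPM, counts scaled by library size and TMM factor, or as TPM, which is also normalised for transcript length. Notch1 was at 288 and 324 CPM in NICD_mut 1 and 2 and at 120 to 142 CPM in NICD_wt, without separation of transgene and endogenous transcripts. NICD_mut 1 stood apart in 8 skeletal muscle markers, which summed to 3804 TPM there, 27.4 TPM in NICD_mut 2, 162 TPM in NICD_wt 1, and 11.1 and 8.53 TPM in NICD_wt 2 and 3. Summed TPM of 10 renal stroma markers was 3334 in NICD_mut 1, 1608 in NICD_mut 2 and 947 to 1075 in NICD_wt. Markers of other kidney cell types also moved with the groups, as given beside the genes below. The comparison asks how these modulators stood in whole kidneys where Cre, driven in nephron progenitors, switches on the activated Notch1.

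Dkk1 and Sostdc1 fell and Dkk2 and Dkk3 rose in NICD_mut, and the other 6 genes did not pass the test. All 10 passed the filter on low counts and were tested in 1 fit over 15885 genes (edgeR quasi-likelihood test, threshold 0.05 after Benjamini-Hochberg adjustment over those genes). In that fit 47.7% of all genes were called, 23.0% as higher and 24.8% as lower, so 4 of 10 is near the background share and says nothing particular about these genes as a set. The members' median log2 fold change was -0.0055, against 0.013 over all tested genes. Changes of at least 4-fold that passed were seen for Dkk1, Dkk3 and Sostdc1, 3 of 10, where the background was 3.69%; the genes were proposed with results of these data known. Leaving out both NICD_mut 1 and NICD_wt 1, the libraries with most muscle transcripts, called 5 members, the 4 above and Sfrp2. Leaving out NICD_mut 2 called 7, with Sfrp1 and Sfrp2 higher and Frzb lower as well. Each of these fits keeps a lone NICD_mut library, assumed to vary like the NICD_wt libraries.

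**Figure D1:**
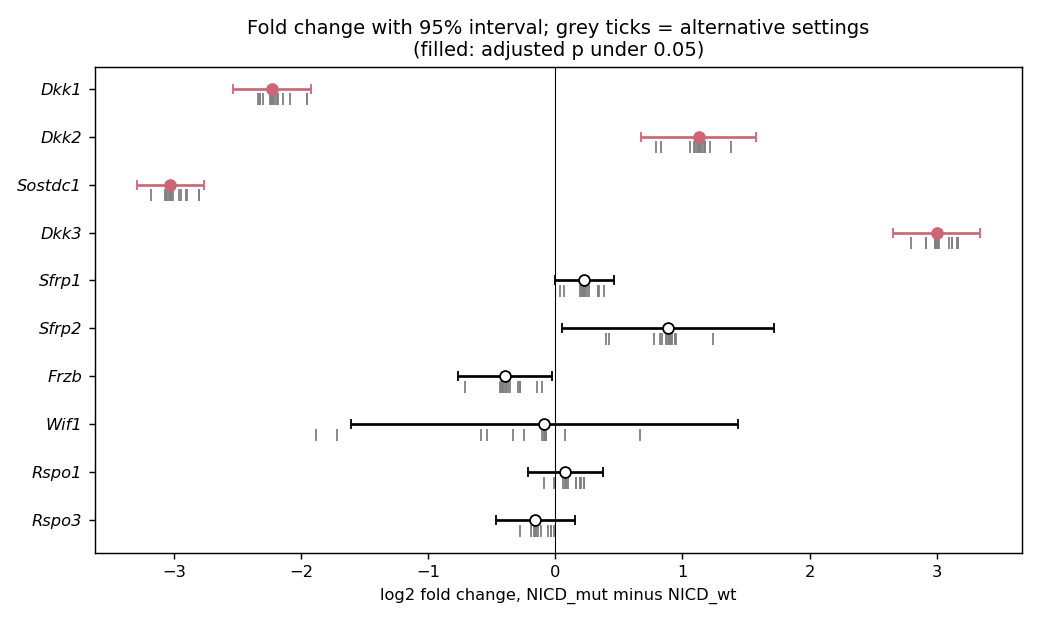
Log2 fold change (x axis, NICD_mut minus NICD_wt) of each gene (y axis), with points from the fit of all 5 libraries, bars for the 95% interval and grey ticks for the same value under each alternative setting. Filled points are the 4 genes past an adjusted p of 0.05, and the ticks of those 4 genes stay on 1 side of 0 while those of Wif1 run from -1.88 to 0.67.

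Dkk1, an inhibitor that removes Lrp5 and Lrp6 from Wnt signalling, was the Dickkopf gene that fell (mm10 chr19:30545863-30549665, minus strand). Its level was 8.44 and 7.35 CPM in NICD_mut 1 and 2, and 39.2, 39.7 and 32.4 CPM in NICD_wt 1, 2 and 3. Both NICD_mut libraries lay far under every NICD_wt library, and they differed from each other by a factor of 1.15. The log2 fold change was -2.23 (SE 0.14, 95% interval -2.54 to -1.92; edgeR quasi-likelihood test, adjusted p = 5.93e-06), a level 4.70-fold lower. Whole-kidney libraries cannot tell fewer cells of a type from less RNA per cell, here or for any gene below. Of 6 early nephron markers (Lhx1, Pax8, Fgf8, Jag1, Bmp2 and Dll1) 4 fell and 1, Pax8, rose. Their summed TPM was 196 and 266 in NICD_mut and 199 to 210 in NICD_wt, and none was at 0 in a library. Pax8 alone made up 122 and 166 TPM of the NICD_mut sums and 70.6 to 79.15 TPM of the NICD_wt sums. Of 8 nephron progenitor markers 6 fell and Tmem100 rose, and their summed TPM was 110.5 and 101 in NICD_mut against 507 to 544 in NICD_wt. Tmem100 made up 49.0 and 71.8 TPM of the NICD_mut sums. The part of either cell population in the Dkk1 value was not tested.

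Dkk2, a relative of Dkk1 that also binds the Lrp co-receptors, moved the other way (mm10 chr3:132085292-132180304, plus strand). It was at 102 and 67.6 CPM in NICD_mut 1 and 2 and at 41.1, 38.9 and 36.8 CPM in NICD_wt. The NICD_wt libraries lay within a factor of 1.12 of each other, and the NICD_mut libraries, both higher, differed by a factor of 1.51. The log2 fold change was 1.13 (SE 0.18, 95% interval 0.67 to 1.58; edgeR quasi-likelihood test, adjusted p = 0.0045), a 2.18-fold rise. It was 0.79 without NICD_mut 1 and 1.39 without NICD_mut 2, and passed in both. Of the 10 stroma markers 5 rose and 5 did not pass, and their summed level, like that of Dkk2, was highest in NICD_mut 1. With 1 NICD_wt library left out in turn, 2 or 3 stroma markers rose. By the DESeq2 Wald test 7 rose, and by limma-voom 3 did. The part of stroma in the Dkk2 value was not tested. In TPM the Dkk2 to Dkk1 ratio was 7.01 and 5.29 in NICD_mut and 0.561 to 0.656 in NICD_wt, so the more abundant of these Lrp-binding genes was Dkk1 in each NICD_wt library and Dkk2 in each NICD_mut library.

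Since Dkk1 and Dkk2 moved in opposite directions, their start regions were compared with the promoter sequences of RefSeq (GRCm38.p6), windows of 300 bases from 250 before to 50 after the start. Of the 10 genes 6 had an entry; Dkk3, Sfrp1, Sostdc1 and Rspo3 did not. Both strands were searched for CTTTGA, the core bound by TCF/LEF factors of the Wnt pathway, TGGGAA, the core bound by RBPJ of the Notch pathway, and TATAAA, the TATA box. These letters occurred in 16.0%, 25.6% and 13.6% of all 32851 such windows. The Dkk1 window held 2 TCF/LEF matches and 1 TATA match, that of Dkk2 1 TATA match, that of Frzb 1 TCF/LEF and 1 RBPJ match and that of Wif1 1 TATA match, while those of Sfrp2 and Rspo1 held none of the 3. No matches overlapped. The matches of Dkk1 and Frzb are shown with 12 bases on each side, and for Dkk2 the 250 bases before its start, all 5′ to 3′ on the gene's strand with the matched letters in capitals:
Dkk1 TCF/LEF, bases -174 to -169 from the start (chr19:30549653-30549682, minus strand): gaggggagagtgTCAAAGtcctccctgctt
Dkk1 TCF/LEF, bases -117 to -112 (chr19:30549596-30549625, minus strand): ctcctcccaaagCTTTGAaatcccatcccg
Dkk1 TATA, bases -54 to -49 (chr19:30549533-30549562, minus strand): tgggagcctgagTATAAAggcagccagagg
Frzb TCF/LEF, bases -95 to -90 (chr2:80447474-80447503, minus strand): tcccctgaaaacTCAAAGccttctcggaag
Frzb RBPJ, bases -27 to -22 (chr2:80447406-80447435, minus strand): tgtcggccgaggTGGGAAggcgcagctgcg
Dkk2 (chr3:132085042-132085291, plus strand): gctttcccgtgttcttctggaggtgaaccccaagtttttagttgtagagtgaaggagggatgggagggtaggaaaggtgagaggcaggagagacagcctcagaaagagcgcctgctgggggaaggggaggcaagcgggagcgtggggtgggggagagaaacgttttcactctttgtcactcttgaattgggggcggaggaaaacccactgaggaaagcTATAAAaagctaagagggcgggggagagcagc
The Wif1 TATA match lies at bases -232 to -227 from the start, on the strand opposite the gene. The GENCODE M21 annotation of mm10 starts Dkk1 169 bases, Frzb 229 bases and Wif1 44 bases further upstream than RefSeq. The matches of Dkk1 and Frzb thus lie inside the GENCODE gene, except the upstream Dkk1 TCF/LEF match, which spans its start. Exon positions were not compared. Both annotations give Dkk2 the same start. A match is a run of letters and not a site known to be bound in these kidneys.

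Sostdc1, a secreted antagonist that acts on Lrp co-receptors and on BMP ligands, had the largest fall of the 10 (mm10 chr12:36314139-36318452, plus strand). It was at 8.77 and 10.6 CPM in NICD_mut 1 and 2, and at 74.9, 86.4 and 75.5 CPM in NICD_wt. The groups were widely separate, with NICD_mut libraries within a factor of 1.20 of each other. The log2 fold change was -3.03 (SE 0.12, 95% interval -3.29 to -2.77; edgeR quasi-likelihood test, adjusted p = 5.90e-07), a level 8.17-fold lower and at the 0.951 percentile of all tested genes. Each of 8 loop of Henle and distal tubule markers fell. Their summed TPM was 12.6 and 9.11 in NICD_mut against 270 to 314 in NICD_wt. The salt transporter genes Slc12a1 and Slc12a3 were listed at 0 TPM in NICD_mut 2. The part of these tubule cells in the Sostdc1 value was not tested. By distance between profiles over the 5 libraries, each centred on the gene's own NICD_wt mean, the tested genes with profiles nearest to Sostdc1 were Arg2 (0.328 log2) and Gfra1 (0.361 log2).

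Dkk3 is a divergent Dickkopf gene whose protein, unlike that of Dkk1, does not bind the Lrp co-receptors. It showed the largest rise of the set (mm10 chr7:112116017-112159057, minus strand). Its level was 236 and 302 CPM in NICD_mut 1 and 2 and 33.5, 37.6 and 29.6 CPM in NICD_wt. Every NICD_mut library was thus above every NICD_wt library by a wide margin. Its log2 fold change was 3.001 (SE 0.14, 95% interval 2.66 to 3.34; edgeR quasi-likelihood test, adjusted p = 2.48e-05), an 8.01-fold rise and the 98.8 percentile of tested genes. It was 3.16 without NICD_mut 1 and 2.80 without NICD_mut 2. Dkk3 was higher in NICD_mut 2 in CPM and higher in NICD_mut 1, the library with most muscle transcripts, in TPM. The part of muscle tissue in the Dkk3 value was not tested. Summed markers of 3 other kidney cell types were higher in both NICD_mut libraries than in NICD_wt. Of 5 podocyte markers 4 rose and 1 fell, with a summed TPM of 439 and 572 in NICD_mut and 239 to 265 in NICD_wt. Of 6 proximal tubule markers 4 rose and 1 fell (361 and 373 against 170 to 206 TPM), and each of 4 endothelial markers rose (329 and 346 against 178 to 193 TPM). With 1 NICD_wt library left out in turn, 2 podocyte, 3 to 5 proximal tubule and 4 endothelial markers rose. The part of these cells or of stroma in the Dkk3 value was not tested. The tested genes with profiles nearest to Dkk3 were Hspa12a (0.284 log2) and Mdga1 (0.291 log2).

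In TPM the order of the Dkk3 libraries differed from that in CPM. The TPM values were 248 and 185 in NICD_mut 1 and 2, and 16.9, 32.99 and 24.15 in NICD_wt 1, 2 and 3. NICD_mut 1 was thus the higher NICD_mut library in TPM and the lower one in CPM, although the groups did not overlap on either scale. TPM per count, which depends on the transcript length that the authors' estimate assigns in each library, differed 1.88-fold between libraries for Dkk3. For each of the other 9 genes it differed at most 1.02-fold. Among 11408 genes with at least 100 counts in each library the median was 1.01-fold, and 0.394% reached the Dkk3 value. Low and high values did not follow the groups, since NICD_wt 1 and NICD_mut 2 had the lower ones. RefSeq lists 4 transcripts of Dkk3 and GENCODE M21 lists 1; transcript levels were not analysed here, and the cause of the difference was not tested.

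**Figure D2:**
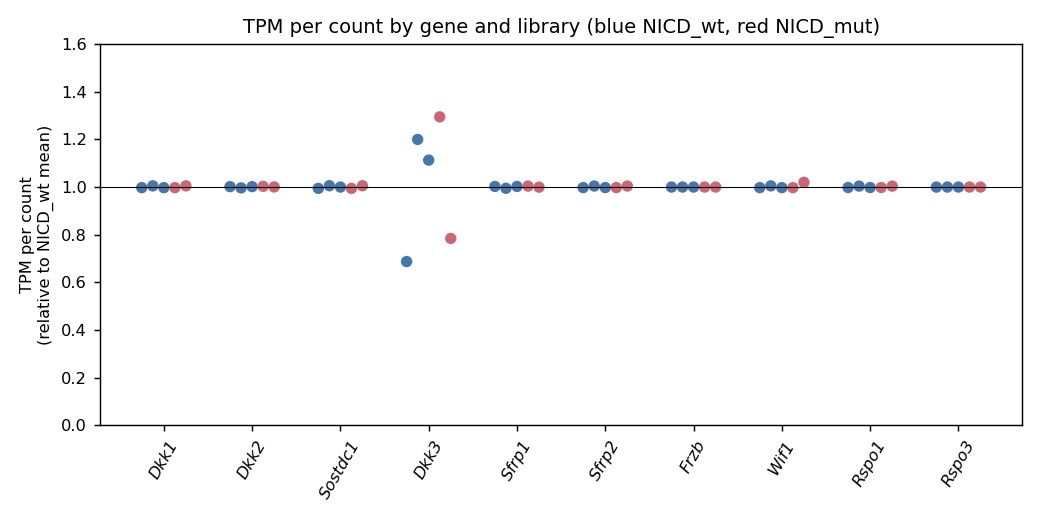
TPM per count of each gene (x axis) in each library, divided by the NICD_wt mean of that gene (y axis, no unit), with blue NICD_wt and red NICD_mut points. The points of 9 genes lie on 1 within 1.02-fold, whereas those of Dkk3 spread 1.88-fold with both groups on both sides of 1.

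The secreted Frizzled-related genes, whose proteins carry a Frizzled-type domain that binds Wnts, did not pass. Sfrp2 was at 353 and 197 CPM in NICD_mut 1 and 2 and at 155, 152 and 139 CPM in NICD_wt. Both NICD_mut libraries were above all NICD_wt libraries, but they differed from each other by a factor of 1.80. The difference was 0.88 log2 (SE 0.29, 95% interval 0.05 to 1.72; edgeR quasi-likelihood test, adjusted p = 0.0803). It was 0.40 without NICD_mut 1 and 1.24 without NICD_mut 2, and each of these fits, with a lone NICD_mut library, passed (edgeR quasi-likelihood test, adjusted p = 0.000406 and 1.84e-08). The DESeq2 Wald test also called Sfrp2 higher (0.89, adjusted p = 0.0111). Of the 10 stroma markers 7 had more TPM in NICD_mut 1 than in NICD_mut 2 and 3 had less (Foxd1, Pdgfrb and Tcf21). The collagen gene Col1a1 was at 1383 TPM in NICD_mut 1 and 524 TPM in NICD_mut 2 and did not pass. The receptor gene Pdgfrb, which rose, was at 108 and 143 TPM, and the cortical stroma regulator Foxd1, which also rose, at 75.4 and 78.7 TPM. The part of stroma or muscle tissue in the Sfrp2 value was not tested.

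Sfrp1 was at 241 and 189 CPM in NICD_mut 1 and 2 and at 193, 182 and 177 CPM in NICD_wt. NICD_mut 1 was above the other libraries and NICD_mut 2 lay among those of NICD_wt. This gave a log2 fold change of 0.23 (95% interval -0.0059 to 0.46; edgeR quasi-likelihood test, adjusted p = 0.0992), and 0.04 without NICD_mut 1. Frzb, also known as Sfrp3, was at 23.1 and 34.0 CPM in NICD_mut and at 39.7, 36.3 and 36.7 CPM in NICD_wt. Both NICD_mut libraries were under all NICD_wt libraries, NICD_mut 2 only just. Its log2 fold change was -0.40 (95% interval -0.76 to -0.03; edgeR quasi-likelihood test, adjusted p = 0.0738), and -0.15 without NICD_mut 1. Without NICD_mut 2, Sfrp1 was at 0.38 and Frzb at -0.71 log2, and both passed (edgeR quasi-likelihood test, adjusted p = 0.000385 and 0.000199).

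Wif1, whose WIF domain binds Wnts, was the scarcest of the set. It had 44 and 7 counts in NICD_mut 1 and 2 and 31, 28 and 17 in NICD_wt, or 2.06 and 0.345 CPM against 0.978 to 1.56 CPM. The NICD_mut libraries bracketed the NICD_wt libraries, with a 5.98-fold difference between them. The fitted log2 fold change was -0.09 (95% interval -1.61 to 1.43; edgeR quasi-likelihood test, adjusted p = 0.926), so neither a fall nor a rise of over 2-fold was excluded at this depth. It was -1.88 without NICD_mut 1 and 0.67 without NICD_mut 2, neither past the threshold. Of 5 markers of cartilage, a tissue known for Wif1 and Frzb expression, 2 rose, 2 fell and 1 did not pass, with Matn1 at 0 in NICD_mut 1. Their summed TPM was 28.5 and 5.25 in NICD_mut 1 and 2 and 26.6 to 29.1 in NICD_wt. Col2a1, the defining cartilage collagen, was at 1.35 and 1.01 TPM in NICD_mut and at 17.2 to 20.7 TPM in NICD_wt, and fell. Col9a1, which did not pass, was at 25.6 and 2.28 TPM in NICD_mut and at 7.35 to 8.41 TPM in NICD_wt. Their part in the Wif1 and Frzb values was not tested.

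**Figure D3:**
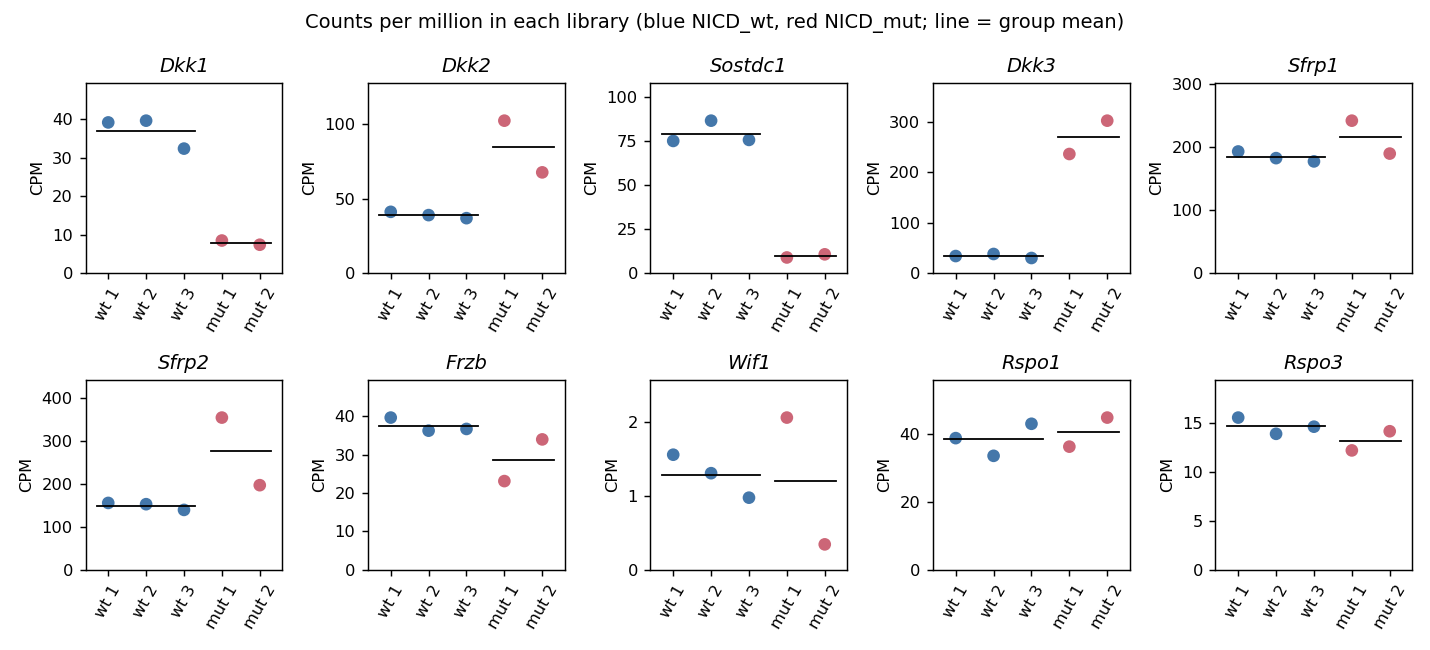
CPM (y axis, from 0, own scale in each panel) of the 10 genes in each library (x axis), with blue NICD_wt and red NICD_mut points and lines at group means. Groups are far apart for Dkk1, Sostdc1 and Dkk3, and the NICD_mut libraries differ most from each other for Wif1 (5.98-fold) and Sfrp2 (1.80-fold).

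The R-spondins, the only agonists of the set, did not pass. Rspo1, which is expressed in nephron progenitors and their early derivatives, was at 36.4 and 44.98 CPM in NICD_mut 1 and 2 and at 38.9, 33.7 and 43.2 CPM in NICD_wt. The groups overlapped. Its log2 fold change was 0.08 (95% interval -0.22 to 0.37; edgeR quasi-likelihood test, adjusted p = 0.651). The progenitor marker Six2, by comparison, had 7 and 6 counts in NICD_mut against 2411 to 3015 in NICD_wt. Rspo3 was at 12.2 and 14.2 CPM in NICD_mut and at 15.6, 13.9 and 14.7 CPM in NICD_wt, also with overlap. Its log2 fold change was -0.16 (95% interval -0.46 to 0.15; edgeR quasi-likelihood test, adjusted p = 0.372). The fitted intervals of both genes exclude a 2-fold change in either direction. Their summed TPM was 49.3 and 58.1 in NICD_mut and 43.3 to 52.8 in NICD_wt. Of 6 gonad and adrenal markers, tissues near the kidney in which Rspo1 can be expressed, the summed TPM was 2.67 to 3.07 in every library and Cyp17a1 was at 0 in all 5. Foxl2 had 9 counts in NICD_mut 2 and 0 in each other library. The part of these tissues in the Rspo1 value was not tested.

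For 6 of the 10 genes the groups did not overlap in CPM, a share of 60%, where 67.2% of all tested genes did not. These were the 4 that passed, Sfrp2 and Frzb. Within NICD_mut, Dkk1, Dkk2, Sfrp1, Sfrp2 and Wif1 were higher in library 1 and Dkk3, Sostdc1, Frzb, Rspo1 and Rspo3 in library 2.

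The order of levels, in TPM, was different in the 2 groups. In NICD_wt, Sfrp2 was highest (132 ± 7.62 TPM, SD, n = 3), followed by Sostdc1 (81.7 ± 7.24), Sfrp1 (68.8 ± 3.004) and Rspo1 (37.8 ± 4.51), each with a range separate from the next. Dkk1 (28.8 ± 3.17), Dkk3 (24.7 ± 8.08) and Frzb (21.7 ± 1.05) came next, followed by Dkk2 (17.4 ± 0.94). The range of Dkk3, 16.86 to 32.99 TPM, overlapped those of Dkk1, Frzb and Dkk2. Rspo3 (10.6 ± 0.57) and Wif1 (0.997 ± 0.226) were lowest, each separate from all others. In NICD_mut, Sfrp2 (267 ± 114 TPM, SD, n = 2) and Dkk3 (216 ± 44.7) were the highest, with overlapping ranges. Sostdc1 (10.9 ± 1.16) and Dkk1 (6.69 ± 0.841) stood at ranks 7 and 9, with Rspo3 between them. The ranges of Sostdc1 (10.04 to 11.68 TPM) and Rspo3 (9.81 to 10.93 TPM) overlapped. As a description over these libraries, Sostdc1 made up 18.1% to 20.4% of the summed TPM of the 10 genes in NICD_wt and 1.21% and 2.03% in NICD_mut. The share of Dkk3 was 3.97% to 7.5% in NICD_wt and 29.9% and 32.1% in NICD_mut.

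Summed over the 10 genes, TPM was 830 and 576 in NICD_mut and 408 to 440 in NICD_wt. The 8 inhibitors were 15.8 and 8.91 times as abundant as the R-spondins in NICD_mut 1 and 2 and 6.73 to 9.17 times in NICD_wt, so the groups overlapped. Without Dkk3 these ratios were 10.8 and 5.73 in NICD_mut and 6.27 to 8.41 in NICD_wt, with NICD_mut libraries on both sides. The summed TPM of Dkk1 and Dkk2 was 58.3 and 38.3 in NICD_mut and 41.6 to 48.7 in NICD_wt, a sum in which the fall of Dkk1 and the rise of Dkk2 lay side by side.

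**Figure D4:**
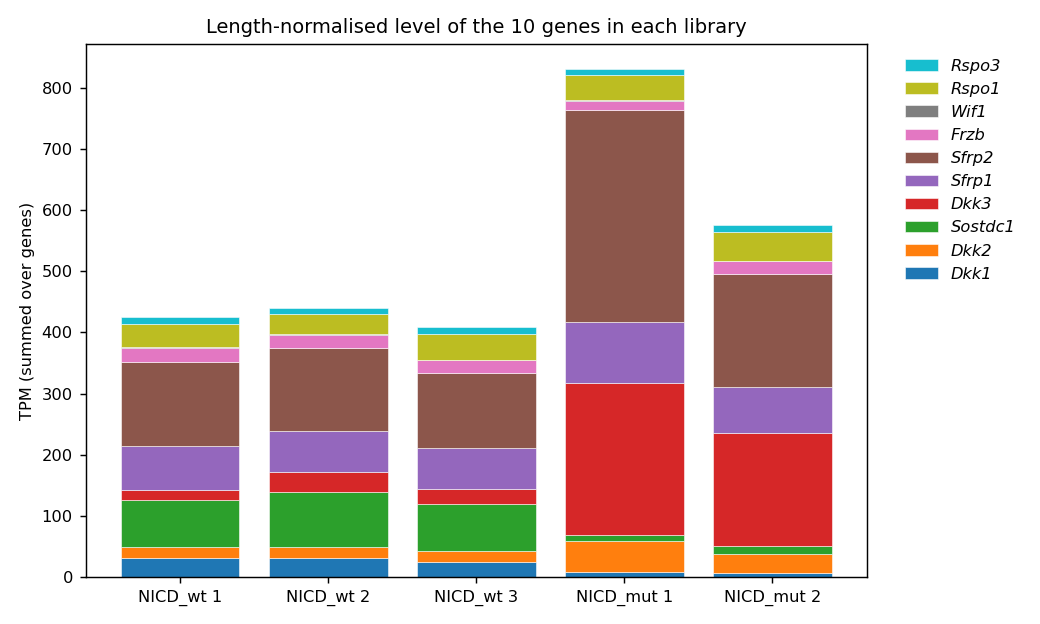
Stacked TPM (y axis) of the 10 genes in each library (x axis), where each colour is a gene. Sums are 408 to 440 in NICD_wt and 830 and 576 in NICD_mut, where the Dkk3 band is wide and the Sostdc1 and Dkk1 bands are thin.

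Of 12 further secreted or membrane modulators of the pathway, 8 were tested, 3 rose, 3 fell and 2 did not pass, with a median log2 fold change of 0.26. Sost, the closest relative of Sostdc1 and also an Lrp inhibitor, fell by 2.70 on the log2 scale (SE 0.35). It had 15 and 11 counts in NICD_mut and 72 to 83 in NICD_wt. Notum, a secreted enzyme that removes the lipid of Wnts, rose by 0.73 (SE 0.14), and Trabd2b, a membrane protease that cleaves Wnts, rose by 0.55 (SE 0.11). The other Frizzled-related genes, named after their values were seen, were scarce. Sfrp4 was at 13.0 and 3.70 CPM in NICD_mut and at 0.806 to 1.81 CPM in NICD_wt, and rose by 2.77 (SE 0.62). Its log2 fold change was 1.59 without NICD_mut 1 and 3.40 without NICD_mut 2. Sfrp5 was at 0.516 and 0.345 CPM against 1.09 to 1.56 CPM and changed by -1.65 (SE 0.50). Each of these changes passed the edgeR quasi-likelihood test (adjusted p of 0.000303, 0.00303, 0.00501, 0.0131 and 0.0227 in the order given). Sfrp4 did not pass without NICD_wt 2 or NICD_wt 3 or by limma-voom, and Sfrp5 did not without NICD_mut 2, NICD_wt 1 or NICD_wt 2, or without NICD_mut 1 and NICD_wt 1 together. In the fits without NICD_mut 2, NICD_wt 1 or NICD_wt 2 only 1 gene of the list fell. Dkk4 had 0 counts in all 5 libraries.

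Of 23 receptors and co-receptors, all tested, 8 rose, 6 fell and 9 did not pass, with a median of -0.07. Lgr5, an R-spondin receptor, fell by 2.10 on the log2 scale (SE 0.25). The Wnt receptor Ryk changed by -0.50 (SE 0.06) and the receptor kinase Ror1 rose by 0.62 (SE 0.08). Each of these 3 passed (edgeR quasi-likelihood test). Known partners of the 10 genes were also looked up, after their values were seen. For the Lrp-binding inhibitors, Lrp6 did not pass (-0.07, SE 0.06), Lrp5 rose by 0.36 (SE 0.10) and Kremen1, a DKK1 receptor, rose by 0.39 (SE 0.07). For the R-spondins, Lgr4 rose by 0.72 (SE 0.15), Znrf3 changed by -0.31 (SE 0.09) and passed, and Rnf43 did not pass (-0.25, SE 0.17). In TPM, Lgr4 was the most abundant Lgr receptor, at 115 in NICD_mut and 64.7 in NICD_wt on average, against 0.875 and 3.07 for Lgr5. The call of Lrp5 was lost without NICD_mut 2, NICD_wt 1 or NICD_wt 3, that of Lgr4 without NICD_wt 2 and that of Znrf3 without NICD_wt 1 or without NICD_mut 1 and NICD_wt 1 together, while Rnf43 passed without NICD_mut 1 (-0.48) and without NICD_mut 1 and NICD_wt 1 together (-0.57). Without NICD_mut 1, 9 receptors fell in place of 6.

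Of 13 tested Wnt ligands 4 rose, 4 fell and 5 did not pass. Wnt9b, the inductive signal of the ureteric bud, was at 3.14 and 4.49 CPM in NICD_mut and at 36.1 to 41.8 CPM in NICD_wt, Wnt11 changed by -1.80 (SE 0.09), and Wnt16 rose by 3.18 (SE 0.24). Of 6 ureteric epithelium markers 4 fell, among them Ret (-4.12) and Hoxb7 (-1.21), Krt8 rose and 1 did not pass. Their summed TPM was 537 and 424 in NICD_mut and 452 to 493 in NICD_wt, and Aqp2 was listed at 0 TPM in NICD_mut 2. Krt8 alone made up 349 and 267 TPM of the NICD_mut sums and 160 to 183 TPM of the NICD_wt sums. The part of ureteric cells in the Wnt9b and Wnt11 values was not tested. The median log2 fold change of the ligands was 0.194. It was 0.087 without NICD_mut 2 and -0.213 without NICD_mut 1, fits that each leave a lone NICD_mut library. Of 6 canonical Wnt targets 4 fell and the other 2, Nkd1 and Ccnd1, did not pass, at a median of -0.65. By limma on log2(TPM + 1) 1 target rose and 3 fell, and with a stricter filter on counts 1 rose and 4 fell. Lef1, a transcription factor of the pathway, changed by -1.40 (SE 0.16), Axin2 by -0.66 (SE 0.08) and the transcription factor Sp5 by -2.38 (SE 0.29). These counts stand beside 47.7% of all genes called and were not tested as sets.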

How the data were processed

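The deposited table of estimated counts per gene symbol held whole numbers, so no rounding was needed, and the authors' TPM table covered the same genes and libraries. The submitters' processing notes name RSEM, Bowtie2 and the mm10 genome; versions, annotation and strandedness are not given in the sources used. Columns were matched to samples by name. Counts were scaled with TMM and filtered with filterByExpr (minimum count 10, minimum total 15), leaving 15885 of 32793 genes. NICD_mut was compared with NICD_wt by the edgeR 4.0.16 quasi-likelihood test (R 4.3.3) with Benjamini-Hochberg adjustment at 0.05. SEs and 95% intervals come from that fit. TPM gave levels between genes, with no test. The members and lists were chosen with earlier results of these data known. All 10 members are named, with the 3 genes of smallest adjusted p per pathway list and, for the members with the largest fall and rise, the 2 genes nearest by Euclidean distance between log2 CPM profiles, each centred on its NICD_wt mean (0.1 added to CPM). The test was checked on simulated counts. In that simulation of 15885 genes it recovered 68.7% of the 67 genes changed 2-fold. Far fewer genes were changed there than were called in the data, so this share is not the power of the test here. Alternatives used DESeq2 1.42.0, limma 3.58.1 (voom and log2(TPM + 1) or log2(TPM + 0.1)), other filters and scalings, a replicate block and libraries left out. Gene positions are from GENCODE M21 and promoters from RefSeq. Figures used matplotlib 3.10.9.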

Additional observations from a re-analysis of the deposited data

How the results depend on the processing

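The calls of Dkk1, Dkk2, Dkk3 and Sostdc1 held in direction and threshold under all 16 alternatives, at log2 values of -2.34 to -1.95, 0.79 to 1.39, 2.80 to 3.17 and -3.18 to -2.80. With 1 library left out in turn, 4 to 7 members and 5898 to 8050 genes were called; the 7 came without NICD_mut 2. Sfrp2 passed under 5 alternatives, Sfrp1 and Frzb each under 1, and Rspo3 under none. With 1 library left out, Wif1 ran from -1.88 to 0.67 log2 and Rspo1 from -0.091 to 0.22. Wif1 turned positive without NICD_mut 2 (0.67) and NICD_wt 1 (0.07), and Rspo1 negative without NICD_mut 2 (-0.091) and NICD_wt 2 (-0.01), none past the threshold. Wif1 gave no value under the stricter filter (50 counts in 2 libraries), which it did not pass. The same replicate numbers occur in both groups but no label ties them. With replicate number as a block 5535 genes and 4 members were called, 6 receptors rose and 4 fell. In that fit 1 further modulator fell in place of 3, and Znrf3 and Sfrp5 did not pass (edgeR quasi-likelihood test, adjusted p = 0.0664 and 0.0527). Deviations of same-numbered libraries correlated at 0.34 and 0.149, and those of NICD_mut 2 and NICD_wt 3, with unlike numbers, at 0.234. Deviations of the 2 NICD_mut libraries are equal and opposite, so these values are not independent. By limma on log2(TPM + 1) 4269 genes were higher and 2747 lower, against 3649 and 3934 on counts, and the median of all genes was 0.11 log2 against 0.013; fold changes there understate low genes. The cause was not tested. A depth of 17361823 to 21356447 counts leaves Wif1, at 7 to 44 counts, with an interval that spans a fall of 1.61 and a rise of 1.43 log2.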
